A study of Mus musculus with 17 samples.

Results

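The lysosome's degradative enzymes and membrane proteins were followed as a set of 38 mouse genes in liver RNA. The set was chosen by gene symbol from knowledge of the organelle, by a rule that uses no measured value but with earlier results of these data known, and all 38 symbols were found among the 24676 genes of the authors' table of normalized counts. By role, the set held 10 proteases (Ctsa, Ctsb, Ctsc, Ctsd, Ctsh, Ctsl, Ctss, Ctsz, Lgmn, Tpp1) and 11 glycosidases (Hexa, Gla, Glb1, Gusb, Gaa, Idua, Man2b1, Manba, Fuca1, Neu1, Naglu). It also held 4 sulfatases (Galns, Ids, Sgsh, Arsa), 7 genes of lipid hydrolysis and export (Lipa, Smpd1, Ppt1, Psap, Gm2a, Npc1, Npc2) and 5 membrane proteins (Lamp1, Lamp2, Scarb2, Cd63, Mcoln1). Tfeb, which encodes a transcription factor that drives lysosomal genes, completed it.

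The 17 libraries were made from the livers of male mice, of mixed strain and 11 weeks old per the sample labels (the series text gives a younger age), all homozygous for loxP-flanked Gata4 (Gata4 fl/fl). At 10 weeks of age every mouse received an adeno-associated virus of serotype 8 (AAV8). In the Gata4LKO arm the virus carried Cre under Tbg, a promoter active in hepatocytes, so other liver cells were not the intended target. In the control arm it was an empty virus, so that Cre and the loss of Gata4 cannot be told apart in this design. After 1 week the mice were gavaged 17 h and again 8 h before sacrifice and were fasted for 4 h. Treatment was GW3965, a drug-like compound that activates liver X receptors, at 40 mg/kg in canola oil, or vehicle (dimethylsulfoxide in canola oil). The groups were control with vehicle (n = 4), Gata4LKO with vehicle (n = 4), control with GW3965 (n = 4) and Gata4LKO with GW3965 (n = 5). They follow the sample titles, which the treatment label contradicts in 8 libraries, those of the Gata4LKO vehicle and control GW3965 groups. Nothing in the labels says that no 2 libraries share a mouse, so p-values measure only the spread between libraries, which may be technical.

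Lysosomes are acidic vesicles in which hydrolases break down proteins, glycans and lipids delivered by endocytosis and autophagy. In the liver both hepatocytes and the resident macrophages, the Kupffer cells, are rich in them. Lysosomal acid lipase frees cholesterol and fatty acids from lipoprotein lipids, and the Niemann-Pick proteins pass the cholesterol out of the organelle. Liver X receptors are nuclear receptors that are activated by oxidised cholesterol and drive genes of cholesterol efflux and lipid synthesis. TFEB and its relatives bind short palindromic sites, built on the letters CACGTG, near the start of many lysosomal genes.

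Libraries held 11.8 M to 22.05 M reads in genes, recovered from the normalized counts. In 5 libraries (control vehicle replicate 1, control GW3965 replicates 10 and 13, Gata4LKO GW3965 replicates 17 and 18) mitochondrially encoded genes took 15.6% to 32.6% of counts, against 6.06% to 7.26% in the other 12. None of those 5 was in the Gata4LKO vehicle group. Abca1, a known liver X receptor target, had a mean of 3738 normalized counts ± 366 (SD, n = 4) with vehicle and 8819 ± 3397 (n = 4) with GW3965 in control, and 3921 ± 112 (n = 4) and 7048 ± 967 (n = 5) in Gata4LKO. Its values with GW3965 lay above all vehicle values in both genotypes. Counts over the whole Gata4 gene were not lower in libraries labelled Gata4LKO, at 194 ± 44.2 (n = 4) against 153 ± 27.3 (n = 4) with vehicle and 219 ± 41.2 (n = 5) against 221 ± 44.1 (n = 4) with GW3965. Such counts include reads outside the part that Cre removes, so they do not check the genotype. The 9 hepatocyte markers checked were present in every library. Their summed normalized counts were 1899027 to 2091371 in control vehicle, 1540222 to 1779906 in Gata4LKO vehicle, 1639970 to 2301695 in control GW3965 and 1432633 to 1735499 in Gata4LKO GW3965.

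All 38 genes passed the filter on low values (4 or more libraries with a normalized count of 10 or above), which 13379 genes passed. As one set they took a steady part of liver messenger RNA: their summed counts were 0.508% to 0.602% of all counts outside mitochondrial genes. The group means of that share were 0.554% ± 0.0239 (SD, n = 4) in control vehicle, 0.573% ± 0.0199 (n = 4) in Gata4LKO vehicle, 0.543% ± 0.0313 (n = 4) in control GW3965 and 0.555% ± 0.0175 (n = 5) in Gata4LKO GW3965, and the groups overlapped. Within groups, the SD of log2(normalized count + 1) had a median of 0.26 over the 38 genes, against 0.32 over all tested genes.

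Levels within the set differed widely. Expressed per kilobase of annotated exon, so that genes can be compared, the median of the 38 genes was 224 normalized counts per kb, against 45.5 over all tested genes. Lamp1, a heavily glycosylated protein of the limiting membrane, was the highest at 3745 per kb. Psap, the precursor of the saposin cofactors of sphingolipid breakdown, followed at 1935 per kb, and Ctsz, an exopeptidase of the cathepsin family, at 1737 per kb. Ctsl at 1584 and Lamp2 at 1569 per kb lay close behind, and the libraries of these 3 genes overlapped in level. The highest glycosidase was Hexa at 289 per kb, a subunit of beta-hexosaminidase, and the highest sulfatase was Arsa at 215 per kb, which desulfates sulfatide. Lipa stood at rank 10 of 38, with 599 per kb. At the low end were Tfeb at 16.4 per kb and Cd63 at 3.88 per kb. Cd63, a tetraspanin, had only 5.78 to 24.3 normalized counts per library and has a processed copy elsewhere in the genome, so its level is uncertain. In the annotation 18 of the 38 genes overlap another gene, 15 of them one on the opposite strand, and for the strand setting of the counting the sources used here hold no statement. Lipa and Lgmn overlap none.

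**Figure D1:**
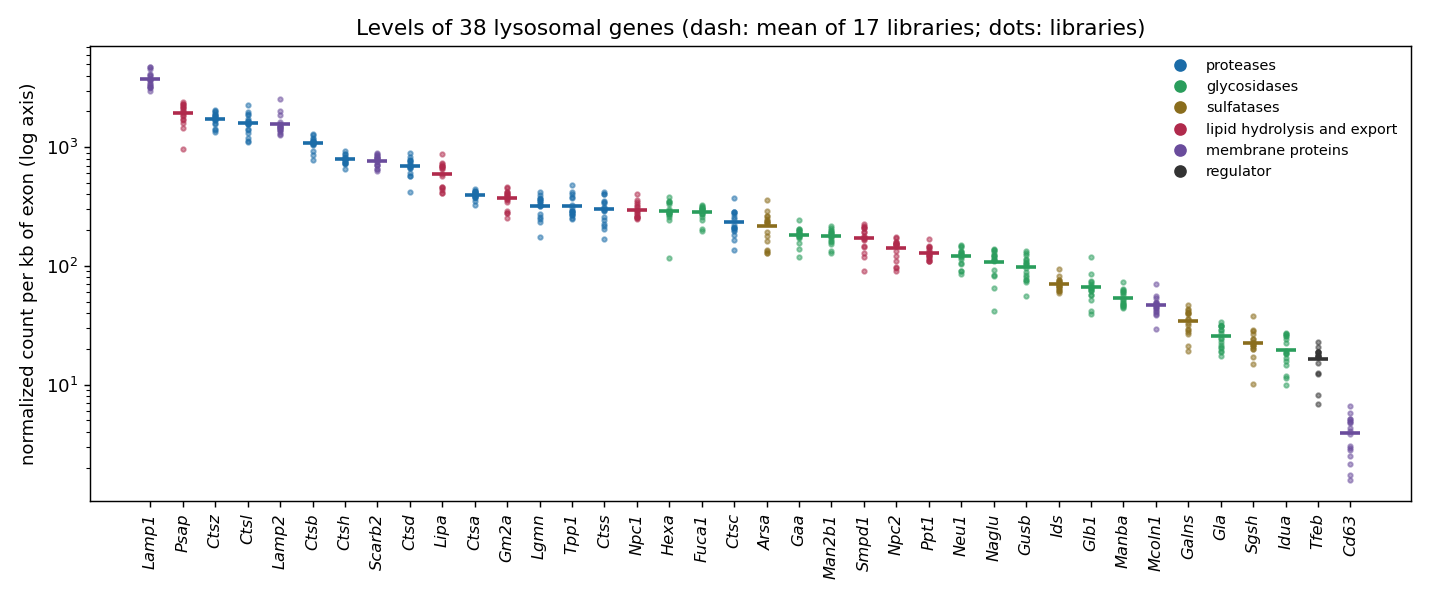
Normalized counts per kb of exon for the 38 genes on a log axis, ordered by level; each dot is 1 of 17 libraries, the dash is their mean and the colour is the role. The genes run from 3745 per kb for Lamp1 down to 3.88 per kb for Cd63.

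Promoter windows from RefSeq (mouse build GRCm38.p6, 250 bases before to 50 after each start) were found for 34 of the 38 genes, all but Ctsb, Ctsh, Galns and Npc1. The core letters CACGTG, which read the same on both strands, occurred in the window of 12 of these 34 genes (35.3%), against 11.7% of the 10107 tested genes with a window. Those 12 were Arsa, Ctsa, Ctsd, Ctsl, Gaa, Gla, Glb1, Lamp1, Lgmn, Mcoln1, Naglu and Sgsh. The longer form TCACGTGA, which contains the core, occurred in 4 of the 34 (11.8%) against 2.22%. A match describes the letters only. The 4 genes with the longer form, and the Lamp1 window with its row of 4 cores just before the start, show how these sites look, with the matched letters in capitals:
Ctsa, chr2:164833749-164833778, plus strand: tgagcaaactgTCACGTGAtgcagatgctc
Ctsd, chr7:142387908-142387937, minus strand: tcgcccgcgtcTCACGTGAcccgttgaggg
Gla, chrX:134601215-134601244, minus strand: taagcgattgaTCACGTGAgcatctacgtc
Mcoln1, chr8:3500462-3500491, plus strand: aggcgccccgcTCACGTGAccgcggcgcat
Lamp1, chr8:13159092-13159160, plus strand: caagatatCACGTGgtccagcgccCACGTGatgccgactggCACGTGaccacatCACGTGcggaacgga
The 2 genes called with GW3965 were Lipa in both genotypes and Lgmn in control and averaged over genotypes. They differ in this respect at 1 Lgmn start only. Lgmn holds 1 core in the window of an alternative start inside the gene. The 165 bases outside annotated exons before a start further upstream hold none (chr12:102439814-102439978). None of these letters occur in the 250 bases before the Lipa start either:
Lgmn, chr12:102439124-102439153, minus strand: tggaatgtctgtCACGTGgtccattttata
Lipa, chr19:34527475-34527724, minus strand: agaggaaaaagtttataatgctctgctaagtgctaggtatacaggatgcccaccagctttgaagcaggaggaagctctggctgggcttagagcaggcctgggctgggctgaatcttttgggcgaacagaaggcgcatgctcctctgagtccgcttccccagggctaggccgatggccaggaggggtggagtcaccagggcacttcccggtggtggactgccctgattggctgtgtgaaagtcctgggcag

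With GW3965, Lipa rose in both genotypes, by 1.42-fold in control and 1.61-fold in Gata4LKO livers, and Lgmn rose by 1.52-fold in control. With limma these were the only 2 of the 38 genes past the threshold in any comparison with GW3965. Differences are of log2(normalized count + 1) with limma's standard error (SE), and a gene was called when its p adjusted over all 13379 genes (Benjamini-Hochberg) was below 0.05. In control livers 2 of the 38 genes were called higher with GW3965, Lipa and Lgmn, and none lower, where 0.605% of all tested genes were called higher and 0.187% lower. In Gata4LKO livers 1 of the 38 was called higher, Lipa, and none lower, where 0.202% of all tested genes were called higher and 0.0448% lower. Averaged over both genotypes the same 2 were called higher, where 1.34% of all tested genes were called higher, 0.441% lower and 1.78% in either direction. Of the 38, edgeR called 2, 1 and 2 in these 3 comparisons and DESeq2 2, 1 and 3. Over all 13379 tested genes edgeR called 101, 31 and 231 in either direction and DESeq2 226, 200 and 527. At an unadjusted p below 0.05 the numbers were 3, 3 and 7 of 38, and the shares of all tested genes 8.96%, 12% and 15.3%. The median difference over the 38 genes was -0.02 in control (12 positive, 26 negative) and -0.13 in Gata4LKO (11 positive, 27 negative), while all tested genes had a median of -0.01 and -0.005. Without the 5 libraries of high mitochondrial share these medians were -0.005 (19 positive, 19 negative) and -0.01 (17 positive, 21 negative).

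**Figure D2:**
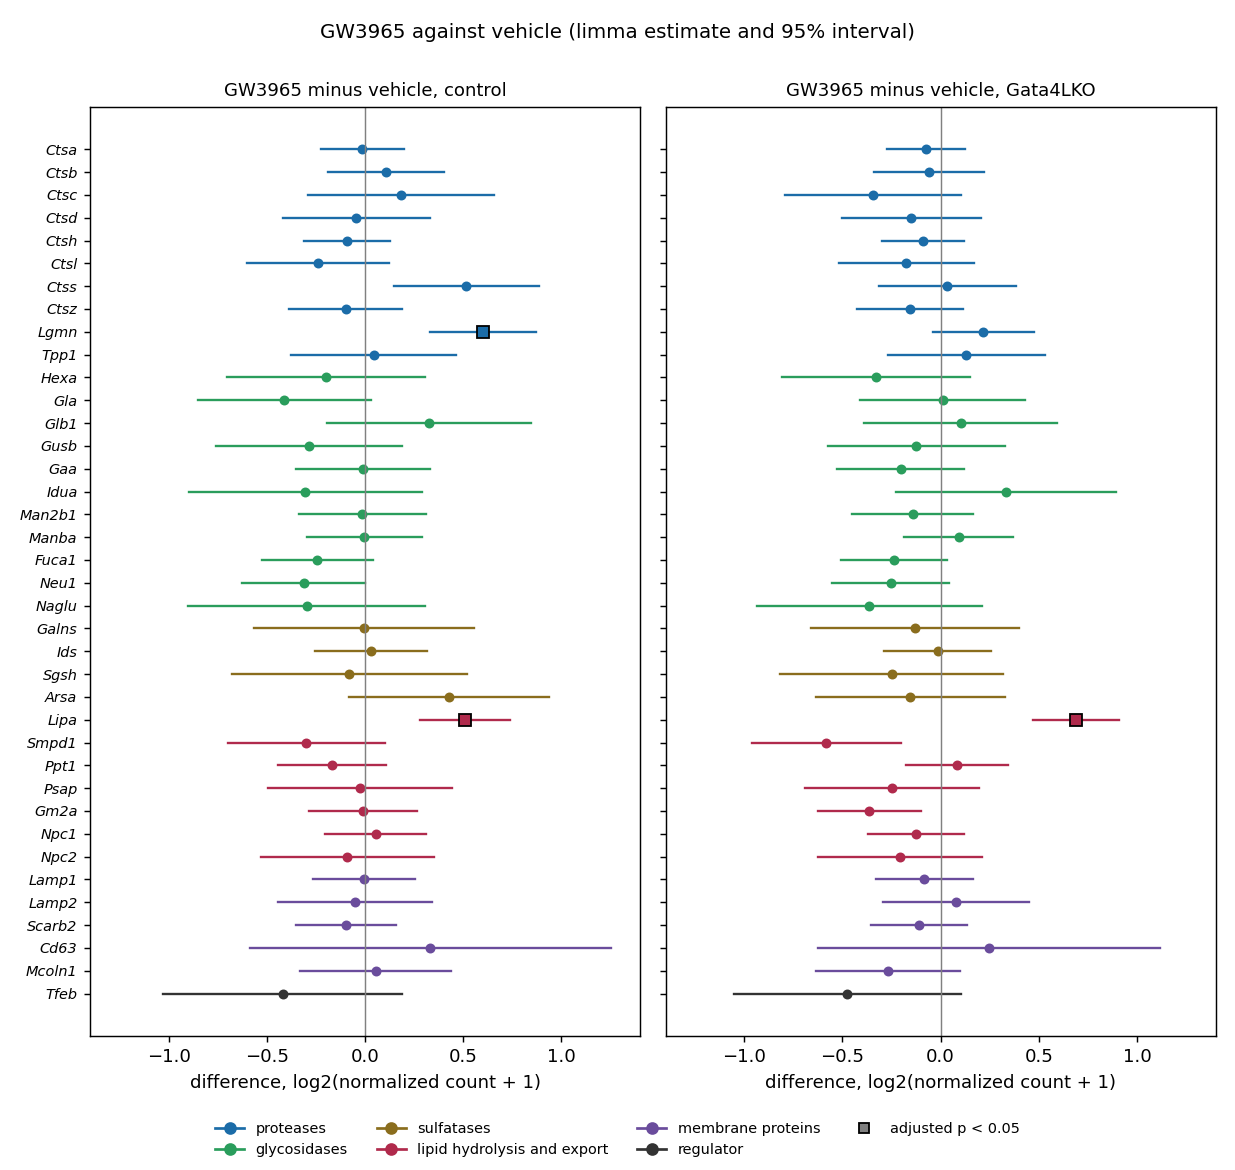
Difference between GW3965 and vehicle for each of the 38 genes, in log2(normalized count + 1), in control (left) and Gata4LKO (right) livers; points are limma estimates, bars 95% intervals, colours roles, and squares mark an adjusted p below 0.05. The squares are Lipa and Lgmn in control and Lipa in Gata4LKO; the other intervals that leave out 0 are those of Ctss in control and of Smpd1 and Gm2a in Gata4LKO.

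Lipa encodes lysosomal acid lipase, the enzyme that hydrolyses cholesteryl esters and triglycerides in the lysosome (chr19:34492318-34527474, minus strand, GENCODE M21 on GRCm38). In control livers its normalized counts were 3840.4, 4019, 3144 and 3066 with vehicle and 4522, 5920.2, 4948 and 4616 with GW3965. In Gata4LKO livers they were 2786, 2937, 3105 and 2784 with vehicle and 4474, 4660.3, 4702, 4702 and 4858 with GW3965. Every GW3965 library lay above every vehicle library of its own genotype and of the other; 3.13% of all tested genes were higher without overlap in control and 2.91% in Gata4LKO. The rise was 0.51 ± 0.11 (log2 ± SE) in control, 1.42-fold with a 95% interval of 1.21 to 1.67 (limma, adjusted p = 0.0357). It was 0.69 ± 0.10 in Gata4LKO, 1.61-fold with an interval of 1.39 to 1.88 (limma, adjusted p = 0.0104), which placed Lipa at rank 4 by p among all 13379 tested genes. Averaged over genotypes it was 0.60 ± 0.08 (limma, adjusted p = 3.04e-04). The difference between the 2 rises, 0.18 ± 0.15, did not pass the test (limma, adjusted p = 0.997). Leaving out each library in turn, the call in Gata4LKO and the averaged call held in 17 of 17 fits, and the call in control in 10 of 17. It was lost without control vehicle replicate 3 (log2 0.43 to 0.58 over these fits, limma, adjusted p = 0.147) or 4, control GW3965 replicate 10 or 12, Gata4LKO vehicle replicate 5 or 8, or Gata4LKO GW3965 replicate 14. Without the 5 high-mitochondrial libraries the rise was 0.48 in control (limma, adjusted p = 0.0901) and 0.67 in Gata4LKO (limma, adjusted p = 0.020).

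Lgmn encodes legumain, a cysteine endopeptidase that cuts after asparagine and processes other lysosomal proteases (chr12:102394084-102439813, minus strand). In control livers its normalized counts were 605, 539, 409.7 and 581 with vehicle and 813, 738, 867 and 793 with GW3965, without overlap. In Gata4LKO livers they were 735, 842, 755 and 635 with vehicle and 851, 810.5, 759, 913 and 977 with GW3965, and these overlapped. It rose by 0.60 ± 0.13 with GW3965 in control, 1.52-fold with a 95% interval of 1.26 to 1.83 (limma, adjusted p = 0.0357). The difference in Gata4LKO was 0.22 ± 0.12 (limma, adjusted p = 0.465), and the averaged rise was 0.41 ± 0.09 (limma, adjusted p = 0.0226). The test of the difference between the genotypes' responses gave -0.38 ± 0.18 (limma, unadjusted p = 0.0445, adjusted p = 0.997), so the responses were not shown to differ. The call in control held in 7 of 17 fits that left out 1 library, at 0.48 to 0.67. It was lost without control vehicle replicate 2, 3 (limma, adjusted p = 0.139, the highest) or 4, control GW3965 replicate 9, 10, 12 or 13, Gata4LKO vehicle replicate 5 or 7, or Gata4LKO GW3965 replicate 14. The averaged call was lost without Gata4LKO vehicle replicate 8 (limma, adjusted p = 0.0612) or control GW3965 replicate 12 (limma, adjusted p = 0.0542). The call in control was also lost without the 5 high-mitochondrial libraries, where the difference was 0.73 (limma, adjusted p = 0.0555).

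Ctss encodes cathepsin S, a protease that is abundant in macrophages and other antigen-presenting cells. It had 328, 277, 229.9 and 292 normalized counts in control vehicle and 404, 352, 429 and 421 in control GW3965, without overlap. In Gata4LKO it had 468, 476, 458 and 398 with vehicle and 397, 543, 303, 567 and 550.2 with GW3965. The differences with GW3965 were 0.52 ± 0.18 in control (limma, adjusted p = 0.282) and 0.03 ± 0.17 in Gata4LKO (limma, adjusted p = 0.939). Neither passed the test.

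Markers of Kupffer cells and macrophages also differed in level between the groups. The summed normalized counts of 15 such markers, none of them among the 38 genes and none at 0 in any library, were 3922 to 5263 in control vehicle, 5875 to 6958 in Gata4LKO vehicle, 6213 to 9394 in control GW3965 and 6315 to 8919 in Gata4LKO GW3965. Control vehicle thus lay below the other 3 groups without overlap. For GW3965 in control the markers had positive differences in 14 of 15 cases (median 0.49), and the remaining marker stood at -0.72. Positive differences were found in 8 of 15 cases for GW3965 in Gata4LKO (median 0.11). For Gata4LKO with vehicle they were found in 15 of 15 (median 0.54). Of the 15, Cd5l was called higher with GW3965 in control, where 0.605% of all tested genes were. Averaged over genotypes 2 of the 15 were called higher, where 1.34% of all tested genes were. Cd5l stayed in the marker level used as a covariate below, so that level may hold a response of Cd5l itself to GW3965. This was not tested. Markers of sinusoidal endothelium had positive differences with GW3965 in 8 of 8 cases in control (median 0.27) and in Gata4LKO (median 0.47). Averaged over genotypes 1 of these 8 was called higher, where 1.34% of all tested genes were. It was Cdh5, a junction protein of endothelial cells, at 0.64 (limma, adjusted p = 0.00216). The sums of these endothelial markers were 3364 to 3838 in control vehicle and 3571 to 5945 in control GW3965. In Gata4LKO they were 3471 to 4164 with vehicle and 3897 to 6028 with GW3965. Markers of stellate cells and fibroblasts were positive in 6 of 8 cases in control (median 0.04) and in 7 of 8 in Gata4LKO (median 0.65). In Gata4LKO 0 of these 8 were called, against 0.247% of all tested genes. An unadjusted p below 0.05 was found for 5 of the 8, against 12% of all tested genes. The sums of these stellate markers were 2965 to 3757 and 3135 to 3832 in control, and 2870 to 4230 and 4079 to 5962 in Gata4LKO, with vehicle and GW3965. None of these endothelial and stellate markers was at 0 in any library, and their part in the differences of Lipa, Lgmn and Ctss was not tested. In a bulk library, fewer cells of a type and less RNA per cell cannot be told apart. A further fit took the mean log2 level of the 15 Kupffer cell and macrophage markers as a covariate. Control vehicle was lowest in these markers without overlap, so for GW3965 in control that fit cannot tell the markers' part from the group's. The GW3965 difference in control was then 0.31 for Lgmn (limma, adjusted p = 0.685) and 0.10 for Ctss (limma, adjusted p = 0.957). For Lipa it was 0.57 in control (limma, adjusted p = 0.174) and 0.70 in Gata4LKO (limma, adjusted p = 0.00606).

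**Figure D3:**
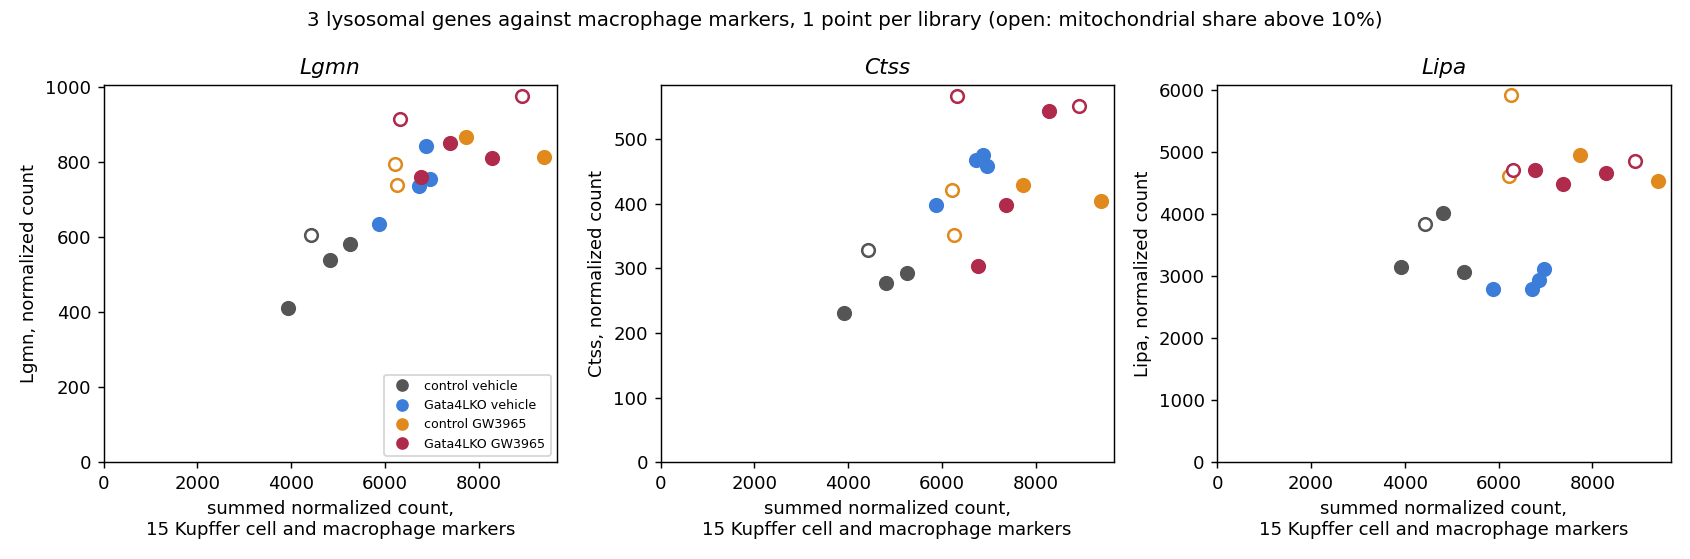
Normalized counts of Lgmn, Ctss and Lipa in each of the 17 libraries (vertical) against the summed normalized counts of 15 Kupffer cell and macrophage markers (horizontal); colours are groups, and open circles mark a mitochondrial share above 10%. Control vehicle is lowest in markers, at 3922 to 5263; Gata4LKO vehicle lies at 5875 to 6958 in markers and at 2784 to 3105 in Lipa.

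Among the other 8 proteases none passed the test in any comparison with GW3965. Their differences ran from -0.24 for Ctsl to 0.18 for Ctsc in control and from -0.34 for Ctsc to 0.13 for Tpp1 in Gata4LKO. Ctsz, the protease with the highest mean per kb over all 17 libraries (in control vehicle Ctsl was higher, at 1872 against 1807 per kb), had mean normalized counts of 2604 ± 118 (SD, n = 4) and 2461 ± 449 (n = 4) with vehicle and GW3965 in control, and of 2624 ± 300.0 (n = 4) and 2361 ± 326 (n = 5) in Gata4LKO. Its differences were -0.10 ± 0.14 and -0.16 ± 0.13, within the spread between libraries.

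The 11 glycosidases, which remove sugars from glycoproteins, glycolipids and glycosaminoglycans, had 10 negative differences with GW3965 in control (median -0.24) and 7 in Gata4LKO (median -0.14), and none passed the test. Glb1, Gusb, Man2b1, Manba and Naglu were lower without overlap in high-mitochondrial libraries, in each group that held such libraries. No glycosidase was higher in all of those groups, and the part of this in the signs was not tested. Fuca1, the lysosomal fucosidase, was lower in all 4 control GW3965 libraries (850.1, 903, 922 and 792) than in control vehicle (1011, 1036, 1077 and 979), a difference of -0.24 (limma, adjusted p = 0.670); 2.71% of all tested genes were lower without overlap in this comparison. In Gata4LKO its groups overlapped. Hexa had means of 634 ± 78.3 (n = 4) with vehicle and 551 ± 36.8 (n = 4) with GW3965 in control and 621 ± 117 (n = 4) and 517 ± 168 (n = 5) in Gata4LKO. The low Hexa mean in Gata4LKO GW3965 rested on replicate 17, at 233, the library with the highest mitochondrial share, the other 4 lying between 546 and 685. The 4 sulfatases had differences of -0.08 to 0.43 in control and -0.25 to -0.02 in Gata4LKO, none past the test.

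Of the 7 genes of lipid hydrolysis and export only Lipa was called with GW3965, and 5 of the other 6 had negative differences in each genotype. Smpd1, acid sphingomyelinase, had 480.0, 695, 703 and 646 normalized counts in control vehicle and 590.1, 488, 581 and 396 in control GW3965. In Gata4LKO it had 644, 754, 692 and 725 with vehicle and 570.0, 566, 546, 303 and 426 with GW3965, so that all 5 treated libraries lay below all 4 vehicle libraries. The differences were -0.30 ± 0.19 in control (limma, adjusted p = 0.773), -0.58 ± 0.18 in Gata4LKO (limma, adjusted p = 0.221) and -0.44 ± 0.13 averaged (limma, adjusted p = 0.101). The averaged difference was smaller, at -0.27, without the 5 high-mitochondrial libraries, but then just passed the test (limma, adjusted p = 0.0498). It also passed at -0.27 with the mitochondrial share as a covariate (limma, adjusted p = 0.0232), at -0.42 by DESeq2 (adjusted p = 0.043) and at -0.50 without control vehicle replicate 1 alone (limma, adjusted p = 0.0478). In Gata4LKO 2.34% of all tested genes were lower without overlap.

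Neither Npc1 nor Npc2, whose proteins carry cholesterol out of the lysosome, was called with GW3965. Npc1, the membrane transporter, had means of 3587 ± 359.9 (SD, n = 4) with vehicle and 3747 ± 631 (n = 4) with GW3965 in control, a difference of 0.05 ± 0.12. In Gata4LKO the means were 3238 ± 417 (n = 4) and 2951 ± 102 (n = 5), a difference of -0.13 ± 0.12. Npc2, its soluble partner, had differences of -0.09 ± 0.21 and -0.20 ± 0.20. Its 5 lowest values, 496, 531, 602, 520.3 and 658, were those of the 5 high-mitochondrial libraries. None of these differences exceeded the spread between libraries, and the 95% intervals on the fold were 0.87 to 1.24 and 0.77 to 1.09 for Npc1.

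Psap and Gm2a, cofactor proteins of glycosphingolipid breakdown, were not called with GW3965. Psap had differences of -0.03 ± 0.22 in control and -0.25 ± 0.21 in Gata4LKO. Its values with GW3965 in Gata4LKO were 6349, 6588, 4997, 2634 and 4622, the low 2 being the high-mitochondrial replicates 17 and 18, and without the 5 such libraries the difference was 0.06. Gm2a, the GM2 activator, had 1532, 1643, 1424 and 1740.1 normalized counts in Gata4LKO vehicle and 1157, 1158, 1194, 1052 and 1667 in Gata4LKO GW3965, a difference of -0.36 ± 0.12 (limma, adjusted p = 0.278). In that group 4 libraries lay together below all vehicle libraries and replicate 18 among them. Its control groups had a difference of -0.01 ± 0.13.

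**Figure D4:**
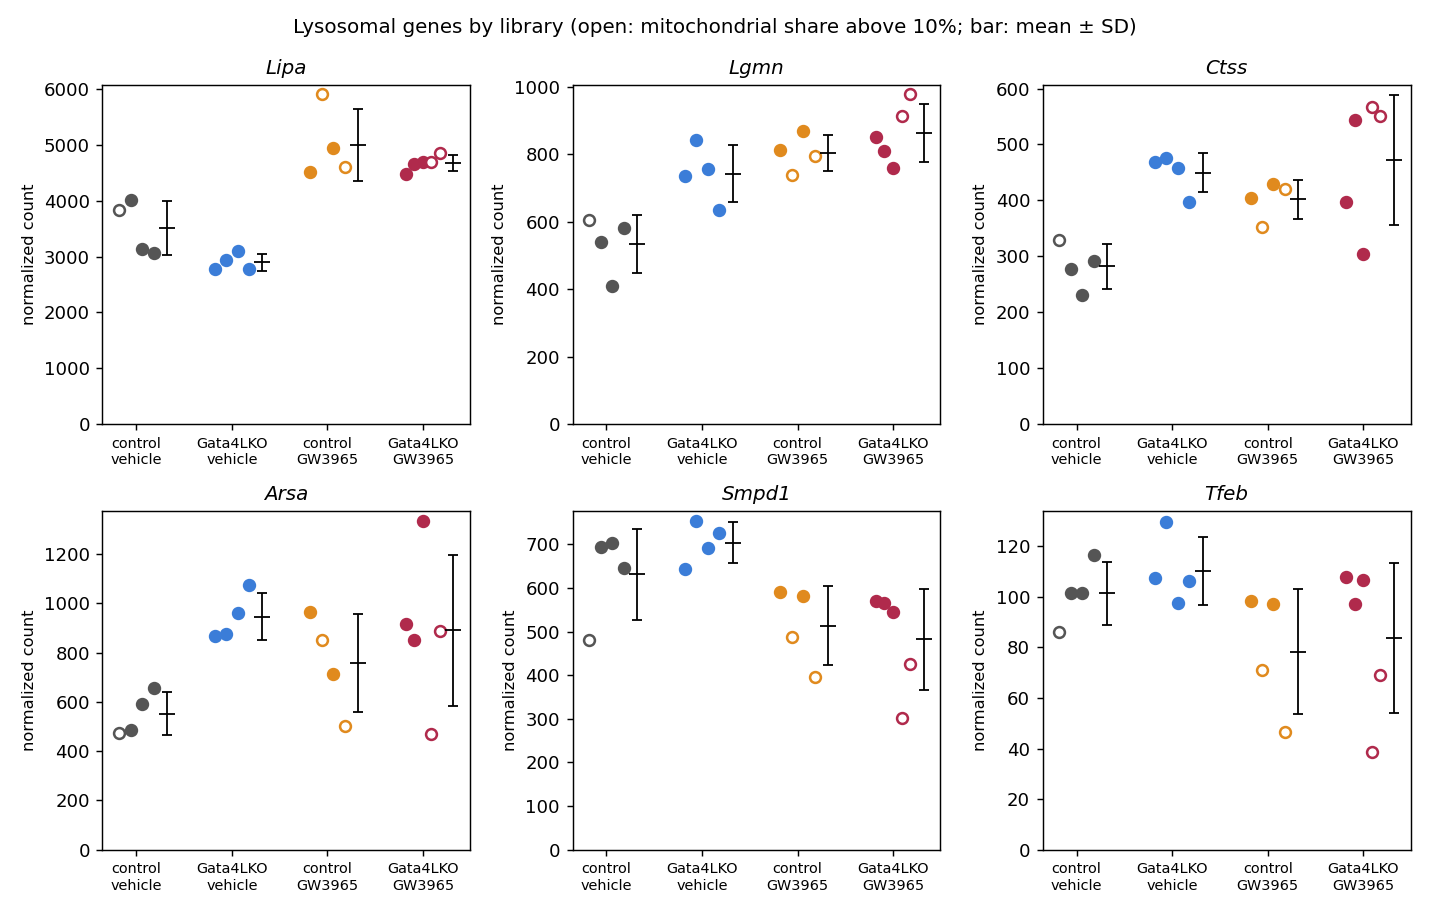
Normalized counts of Lipa, Lgmn, Ctss, Arsa, Smpd1 and Tfeb in each library by group; bars are mean ± SD beside the points, and open circles mark a mitochondrial share above 10%. Lipa with GW3965 lies at 4474 to 5920.2, above all vehicle libraries (2784 to 4019); the open circles are the lowest values of Smpd1 and Tfeb within their groups.

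The membrane proteins showed no call with GW3965, with differences of -0.10 to 0.33 in control and -0.27 to 0.25 in Gata4LKO. Lamp1 differed by -0.01 ± 0.12 in control and -0.08 ± 0.12 in Gata4LKO, with 95% intervals on the fold of 0.83 to 1.19 and 0.79 to 1.12. Mcoln1, the calcium channel mucolipin of the lysosomal membrane, had means of 341 ± 21.8 (SD, n = 4) and 357 ± 53.4 (n = 4) in control and 392 ± 104 (n = 4) and 322 ± 61.5 (n = 5) in Gata4LKO. Its differences were 0.05 ± 0.18 and -0.27 ± 0.17. Tfeb, the regulator, had 85.9, 101, 101 and 116 normalized counts in control vehicle, 107, 129, 97.7 and 106 in Gata4LKO vehicle, 98.3, 71.0, 97.1 and 46.5 in control GW3965 and 108, 97.2, 106, 38.5 and 69.2 in Gata4LKO GW3965. The averaged difference was -0.45 ± 0.20 (limma, adjusted p = 0.296). Its 5 lowest values of the 17, namely 71.0, 46.5, 38.5, 69.2 and 85.9, were again those of the high-mitochondrial libraries, and without them the difference was -0.10.

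Genes with and without the CACGTG core were set side by side as a description, with no test of their difference. The median averaged difference with GW3965 was -0.10 for the 12 with the core (3 positive), -0.09 for the 22 without (8 positive) and -0.02 for all 1185 tested genes with it. Each of the first 2 groups held 1 called gene, Lgmn with the core (at an alternative start inside the gene) and Lipa without. For Gata4LKO against control the medians with and without the core were 0.05 and 0.06 with vehicle and -0.08 and 0.02 with GW3965.

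Between genotypes no gene of the set passed the test. With vehicle 0 of 38 were called by limma and 4 had an unadjusted p below 0.05, and 0.0149% of all tested genes were called and 6.15% had such a p. With GW3965 0 were called and 5 had an unadjusted p below 0.05, against 0.0598% and 6.47% of all tested genes. Averaged over treatments 0 were called, against 0.224%, and 8 had an unadjusted p below 0.05, against 7.19%. By edgeR 0 of 38 were called in each of these 3 comparisons, and by DESeq2 0, 0 and 1, the last being Ctss (0.45 by DESeq2). Over all 13379 tested genes edgeR called 2, 5 and 26 and DESeq2 49, 81 and 129. By limma the averaged Ctss difference was 0.44 (adjusted p = 0.207) and passed without Gata4LKO GW3965 replicate 16, at 0.51 (limma, adjusted p = 0.0342). The median difference of the set was 0.05 with vehicle (23 of 38 positive) and -0.05 with GW3965 (16 positive), where 51.5% and 52.9% of all tested genes were negative. The sign of these medians was not stable. The one with vehicle was -0.03 with the Kupffer marker level as a covariate and -0.008 with the mitochondrial share as one. The one with GW3965 was 0.07 with library totals made equal outside mitochondrial genes, 0.06 without Gata4LKO GW3965 replicate 17 and 0.01 without the 5 high-mitochondrial libraries.

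With vehicle, where the summed hepatocyte markers were also lower in every Gata4LKO than in every control library (9 of 9 negative, median -0.10, 0 called), 3 of the 38 genes were higher in all Gata4LKO libraries than in all control libraries, and none was lower throughout, against 3.0% and 3.58% of all tested genes. The part of the hepatocyte markers in this was not tested. The 3 genes were Ctss, Lgmn and Arsa, with the values of Ctss and Lgmn given above. Ctss differed by 0.68 ± 0.18 (limma, adjusted p = 0.306) and Lgmn by 0.48 ± 0.13 (limma, adjusted p = 0.346). With the Kupffer marker level as a covariate these differences were 0.22 and 0.17. Control vehicle lay below Gata4LKO vehicle in those markers without overlap, so that fit cannot tell the markers' part from the genotype's. Arsa had 475, 487, 590.4 and 656 normalized counts in control vehicle and 869, 876, 959.6 and 1075 in Gata4LKO vehicle, a difference of 0.78 ± 0.24 or 1.72-fold with a 95% interval of 1.21 to 2.44 (limma, adjusted p = 0.441). With GW3965 its values were 963, 850.0, 713 and 502 in control and 915, 851, 1332, 470.2 and 886 in Gata4LKO, a difference of 0.20 ± 0.23. Arsa overlaps a gene on the opposite strand, so its reads may not all be its own. Lipa ran the other way, with a difference of -0.27 ± 0.11 with vehicle (limma, adjusted p = 0.721).

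With GW3965, 1 of the 38 genes, Npc1, was lower in all Gata4LKO libraries than in all control libraries, and none was higher throughout, against 1.14% and 0.822% of all tested genes. Npc1 had 4582, 3160.1, 3376 and 3871 normalized counts in control and 2915, 3092, 2823, 2923 and 3003 in Gata4LKO, a difference of -0.33 ± 0.12 (limma, adjusted p = 0.543). Gm2a differed by -0.44 ± 0.12 (limma, adjusted p = 0.287), with means of 1671 ± 146 (SD, n = 4) and 1246 ± 242 (n = 5). Lamp1 had 9799.9, 12101, 9737 and 12616 in control and 8583, 7988, 9172, 10014 and 8431 in Gata4LKO, a difference of -0.32 ± 0.12 (limma, adjusted p = 0.610). Its difference with vehicle was -0.24 ± 0.12, and averaged over treatments -0.28 ± 0.09 (limma, adjusted p = 0.295). None of these passed the test.

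**Figure D5:**
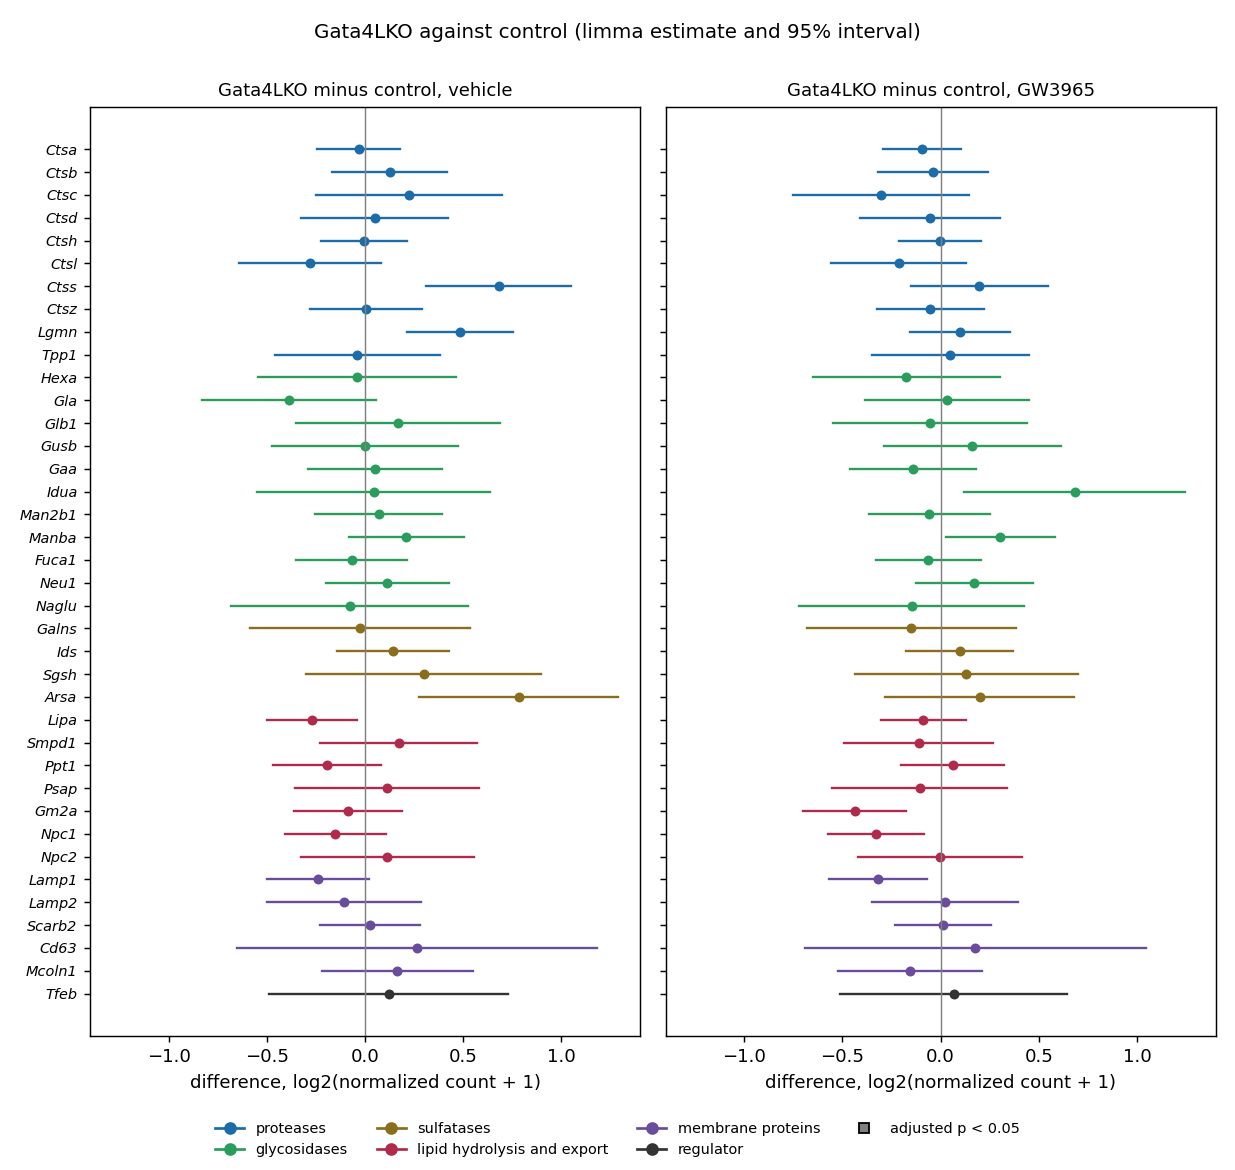
Difference between Gata4LKO and control for each of the 38 genes, in log2(normalized count + 1), with vehicle (left) and GW3965 (right); points are limma estimates, bars 95% intervals and colours roles. No gene has an adjusted p below 0.05; Arsa at 0.78 and Ctss at 0.68 with vehicle lie farthest to the right on the left side.

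No gene of the set had a response to GW3965 that differed between genotypes by the interaction test (0 of 38 called, against 0.0149% of all tested genes). At an unadjusted p below 0.05 stood 1 gene, Lgmn, against 4.65% of all tested genes. By edgeR and DESeq2 0 of 38 were called as well, where edgeR called 0 and DESeq2 26 of all 13379 tested genes.

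Many genes of the set moved with the mitochondrial share. Within each of the 3 groups that held high-mitochondrial libraries, these libraries were compared with the rest of their group. In all 3 groups 11 of the 38 genes were lower without overlap, where 9.52% of all tested genes were, and 1 was higher, Tpp1, where 10.3% were. The 11 were Ctsb, Ctsd, Glb1, Gusb, Man2b1, Manba, Naglu, Smpd1, Psap, Npc2 and Tfeb, with mean log2 differences from -0.19 for Manba to -0.78 for Naglu. Lipa was not among them. It overlapped in control vehicle and control GW3965 and was higher, narrowly, without overlap in Gata4LKO GW3965. This split was made after the values were seen and carries no test.

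The rest of the lysosomal system was described with lists of related genes, and 0 genes of any such list were called in any of the 7 comparisons by limma. Of all tested genes 0.0149% to 1.78% were called in these comparisons, so 0 calls in such short lists lie near that share. Of 20 other hydrolases and cofactors, 12 had negative averaged differences with GW3965, and the nearest to the threshold was Hgsnat, which acetylates heparan sulfate, at -0.42 (limma, adjusted p = 0.0708). Of 17 other membrane proteins, 12 were negative, and the nearest was Laptm5, a membrane protein of blood and immune cells, at 0.47 (limma, adjusted p = 0.0723). The 17 subunits of the proton pump that acidifies the lysosome had a median of -0.07 and the 9 genes of mannose-6-phosphate sorting one of -0.08. Among 16 genes for TFEB relatives and their control by the growth-sensing kinase complex mTORC1, the nearest was Rragd, a small GTPase, at 0.75 (limma, adjusted p = 0.0608). Its normalized counts were low, with means of 17.7 ± 4.15 (SD, n = 4) and 31.7 ± 7.57 (n = 4) in control and 22.5 ± 4.56 (n = 4) and 37.7 ± 10.6 (n = 5) in Gata4LKO, with vehicle and GW3965. Of 16 autophagy genes, 15 had negative differences with GW3965 in control and 15 in Gata4LKO, with medians of -0.16 and -0.23. The nearest of them was Map1lc3b, which encodes the autophagosome protein LC3B, at -0.35 averaged (limma, adjusted p = 0.0982). About as many of all tested genes were negative as positive, 50.9% negative in control, 50.6% in Gata4LKO and 51.1% averaged. The counts for these lists are from all 17 libraries, including the 5 of high mitochondrial share.

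In the authors' deposited tables of comparisons, Lipa and Lgmn were called higher with GW3965 in control, at log2 fold changes of 0.51 and 0.59 and adjusted p of 0.00126 and 0.00246. Lipa was called in Gata4LKO, at 0.69 and an adjusted p of 3.04e-07 in the authors' deposited table. No other gene of the set was called in the authors' deposited tables for either treatment comparison, and none for the 2 genotype comparisons or the interaction. The nearest was Ctss for the genotype with vehicle, at 0.68 and an adjusted p of 0.0515 in the authors' deposited table. Lgmn followed there, at 0.48 and an adjusted p of 0.0831 in the authors' deposited table. The authors' deposited table for GW3965 in control called 1.13% of genes higher, and that for Gata4LKO 1.03%; the shares called lower were 0.491% and 0.304%. The authors' deposited tables for the genotype called 0.434% of genes with vehicle and 0.51% with GW3965, and that for the interaction 0.19%.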

How the data were processed

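Per the labels' protocols, messenger RNA libraries were prepared by KAPA mRNA Hyperprep. The submitters' processing notes list FastQC, DESeq2 and STAR 2.6.0c with the mouse build mm10. For the read counter, annotation and strand setting the sources used here hold no statement. The deposited values are a normalized signal per gene. They are whole reads divided by a scale factor of the library, since multiplying by it gave reads within 0.05 of whole for 100% of values. The authors' comparison tables give log2 fold changes with their p-values, raw and adjusted (per the file headers).

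The test was limma-trend (limma 3.58.1, R 4.3.3) on log2(normalized count + 1), which understates changes of low genes, with 1 coefficient per group and all 17 libraries. Genes at 10 or more in at least 4 libraries were kept, and p was adjusted over all 13379. DESeq2 1.42.0 and edgeR 4.0.16 were run on the recovered reads as alternatives, beside other scalings, pseudocounts, filters and covariates. The fits were tested on simulated data with planted changes larger than those called in this set. That check therefore does not show how well changes of this size are found. Positions and exon lengths are from GENCODE M21, which held 24656 of 24676 identifiers. Replicates differed by far more than sampling noise.

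The members and lists were chosen with earlier results of these data known. Genes described in full were those called in any comparison, the 3 smallest limma p in each of the 4 simple comparisons, the most abundant per kb of each role, and always Lipa, Npc1, Npc2, Lamp1, Mcoln1 and Tfeb. In related lists, called genes or else up to 2 with the smallest p were eligible. Fuca1 was named after its values were seen.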

Additional observations from a re-analysis of the deposited data

Results flagged for a closer look

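Of 56 groups of libraries examined (14 genes in 4 groups), 2 held a library that stood far from the others by Dixon's criterion, which chance alone gives for about 1 group in 20. Gm2a had 1667 normalized counts in Gata4LKO GW3965 replicate 18, where the nearest of the other 4 libraries had 1194. Lamp1 had 11119.7 normalized counts in Gata4LKO vehicle replicate 6, where the nearest of the other 3 had 9083.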

How the results depend on the processing

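Lipa with GW3965 in Gata4LKO, and averaged over genotypes, passed the test under every alternative run, at 0.65 to 0.72 and 0.56 to 0.63. In control it kept its direction but missed the threshold without a filter, with only the compared groups, without the high-mitochondrial libraries and with the Kupffer covariate (0.48 to 0.57). Lgmn in control missed it there too and with equal totals (0.31 to 0.73). No called result changed direction; the medians of the set that lay near 0 did, as given for the genotype above. For GW3965 in control and the interaction they were also positive, at 0.007 with the mitochondrial covariate and 0.005 to 0.008 with the Kupffer covariate or without the high-mitochondrial libraries. The averaged genotype median, 0.003, was negative with TMM scaling, with the mitochondrial covariate and in 8 of 17 fits without 1 library.

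Counts of all genes called moved most. In the order genotype with vehicle, genotype with GW3965, GW3965 in control, GW3965 in Gata4LKO, interaction, averaged GW3965 and averaged genotype, limma called 2, 8, 106, 33, 2, 238 and 30. DESeq2 called 49, 81, 226, 200, 26, 527 and 129. Leaving out 1 library gave 0 to 9, 2 to 21, 22 to 129, 6 to 78, 0 to 9, 142 to 334 and 9 to 57. With the Kupffer covariate the counts were 0 and 4 for genotype, 46 for GW3965 in control, 0 for interaction and 146 and 4 averaged. With the mitochondrial covariate they were 50 (genotype with GW3965), 202 (GW3965 in control), 4 (interaction) and 128 (averaged genotype). With only the compared groups they were 21, 1 and 19 in the first 3 comparisons. Without the high-mitochondrial libraries they were 14 (genotype with vehicle), 63 (GW3965 in control) and 1 (interaction). Equal totals gave 4 (genotype with vehicle) and 18 (averaged genotype), edgeR 5 (genotype with GW3965) and 0 (interaction), no filter 57 for GW3965 in control, and for the interaction a filter at 50 gave 0 and a pseudocount of 10 gave 1.

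Members called were 1 (Arsa) for genotype with vehicle using only the compared groups, and 1 (Ctss) for averaged genotype by DESeq2. For GW3965 in control they were 1 with equal totals and 0 with no filter, only the compared groups, the Kupffer covariate or without the high-mitochondrial libraries. For averaged GW3965 they were 1 (Lipa) with the Kupffer covariate and 3 (Lipa, Lgmn and Smpd1) by DESeq2, with the mitochondrial covariate or without the high-mitochondrial libraries. Leaving out 1 library gave 0 to 2 for GW3965 in control, 1 to 3 for averaged GW3965 and 0 to 1 for averaged genotype. Beyond the number of libraries and genes in these fits, the cause was not tested. Depth limits the members of low count most, with means of 14.3 normalized counts for Cd63 and 82.3 to 92.8 for Idua, Gla, Galns and Tfeb. No paired analysis was possible because the groups share no replicate numbers.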
